A study of Mus musculus with 4 samples.

Results

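The genes described here are 9 transcripts of cellular oxygen sensing, Hif1a, Arnt, Egln1, Egln2, Egln3, Vhl, Bnip3, Bnip3l and Pdk1, taken from 12020 genes with usable read counts in natural killer T (NKT) cells. They were chosen by name from a table in which resting and stimulated cells are compared, with the outcome of that comparison known. Their values are therefore given as a description. Calls on them from the fit of all genes are given only beside the share of all genes. Those calls are not read as a test of the members. All 9 were in the table, and all 9 passed the filter on low counts that 11312 genes passed.

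NKT cells are T lymphocytes whose receptor recognises lipids held by CD1d. Per the labels, they were sorted for high GFP from C57BL/6 mice of the genotype Va14 Tg.cxcr6gfp/+, aged 10-12w, so every library came from cells with a transgenic receptor chain and with GFP at 1 copy of Cxcr6. The 2 resting libraries came from cells that were not stimulated, and the 2 tetramer libraries from cells on plates coated with mCD1d-PBS57 tetramers, which engage the receptor. The labels give liver as the source, while the protocols speak of livers or spleens and, for the RNA, of islets. The sources used here do not give the number of mice behind a library, the oxygen level or the time in culture. Libraries are called 4 and 5 after the numbers in the column names.

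In cells with enough oxygen, the prolyl hydroxylases encoded by Egln1, Egln2 and Egln3 use it to modify the alpha subunit of hypoxia-inducible factor (HIF), encoded by Hif1a, and the VHL ubiquitin ligase then marks that subunit for destruction. When oxygen is scarce, or when T cell receptor signals drive more Hif1a, the alpha subunit accumulates, pairs with ARNT and binds a short DNA element at target genes. Among the known targets are Egln3, Bnip3 and Pdk1, the first of which acts back on the pathway. RNA levels do not measure hydroxylation or the amount of HIF protein.

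The HIF-binding element has the core ACGTG or GCGTG, and the promoters of the members that differed most, with that of Bnip3 for contrast, are shown because Hif1a and Egln3 were higher and Pdk1 lower in the same libraries. RefSeq's promoter table for GRCm38.p6, which is not the mm9 build named for the counts, held 8 of the 9 genes, Bnip3l not among them. Each line below is the 250 bases before a start site, 5′ to 3′ on the gene's strand, with cores on either strand (CACGT and CACGC on the other) in capitals. They are Hif1a at chr12:73907617-73907866 (plus strand), Egln3 at chr12:54203875-54204124 (minus strand), Pdk1 at chr2:71872974-71873223 (plus strand) and Bnip3 at chr7:138909507-138909756 (minus strand).
Hif1a: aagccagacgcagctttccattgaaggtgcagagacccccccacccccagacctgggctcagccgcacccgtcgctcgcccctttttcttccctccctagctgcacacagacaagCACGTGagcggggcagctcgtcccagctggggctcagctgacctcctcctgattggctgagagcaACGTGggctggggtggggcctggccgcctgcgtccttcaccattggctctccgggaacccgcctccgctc
Egln3: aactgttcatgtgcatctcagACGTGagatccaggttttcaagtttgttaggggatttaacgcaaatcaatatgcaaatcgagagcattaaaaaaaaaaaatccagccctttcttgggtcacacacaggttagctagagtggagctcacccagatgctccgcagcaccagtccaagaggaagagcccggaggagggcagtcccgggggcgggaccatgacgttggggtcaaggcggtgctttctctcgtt
Pdk1: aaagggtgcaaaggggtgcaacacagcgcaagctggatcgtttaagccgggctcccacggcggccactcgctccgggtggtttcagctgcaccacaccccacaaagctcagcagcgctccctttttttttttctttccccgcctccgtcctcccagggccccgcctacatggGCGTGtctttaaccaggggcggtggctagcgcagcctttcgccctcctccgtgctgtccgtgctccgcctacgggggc
Bnip3: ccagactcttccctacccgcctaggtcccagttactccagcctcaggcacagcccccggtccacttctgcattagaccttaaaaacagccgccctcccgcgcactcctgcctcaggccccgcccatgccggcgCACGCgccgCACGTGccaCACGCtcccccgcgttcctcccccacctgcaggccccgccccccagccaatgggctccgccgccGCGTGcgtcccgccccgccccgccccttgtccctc

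The Egln3 window held 1 core, 229 bases before the start, and the printed Pdk1 window held 1, 78 bases before it. Another Pdk1 window, at chr2:71874654-71874903 (plus strand), held no core and is not printed. Bnip3 held 5 matches and Hif1a 3, where the palindrome CACGTG, which overlaps ACGTG on both strands, counts as 2. Of the 8 members with an entry, 7 had a core in at least 1 window, all but Vhl. ACGTG was in 16.6% of all 32851 RefSeq windows of this length, GCGTG in 28.2%, either in 38.6% and CACGTG in 6.02%. Those shares are per window, while the 7 of 8 counts genes, which had 10 windows between them. The GC content of these 10 ran from 38.4% to 86.0% and was not matched, so the 2 figures are not compared. A match is letters in a window, not a measured binding site.

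The libraries held between 4168438 and 5495521 counts, and levels are in CPM, counts scaled to a common library size after TMM adjustment, where 1 CPM stands for 4.68 to 4.94 reads. The 7 T and NKT cell markers in the table summed to between 2496 and 2695 CPM in all 4 libraries, led by Cxcr6 and Cd3d. Within that sum Cxcr6, the locus of the GFP used for the sort, fell from 7807 and 5159 counts to 2022 and 3551, while Cd3d had 1422 and 2183 counts at rest and 3191 and 3642 after stimulation and did not pass. Markers of other cells were lower but mostly moved with stimulation. The 7 erythroid markers, led by Hba-a2 and Hba-a1, summed to 215.9 and 554.7 CPM in resting libraries 4 and 5 and to 51.1 and 113.6 CPM in tetramer libraries 4 and 5, and all 7 fell. The 4 macrophage markers summed to 29.0 and 46.5 CPM at rest and to 8.59 and 11.7 CPM after stimulation (led by Csf1r and Lyz1), and the 2 neutrophil markers, S100a9 and S100a8, to 19.5 and 17.9 CPM against 1.84 and 3.23 CPM. The 3 hepatocyte markers, led by Cyp2e1 and Serpina1a, summed to between 28.3 and 52.3 CPM. Within that sum Serpina1a fell, from 23.6 and 35.0 CPM to 7.15 and 9.30 CPM. Cyp2e1 had 25.46 and 15.15 CPM at rest and 37.0 and 16.77 CPM after stimulation and did not pass. The only endothelial marker in the table, Pecam1, was at 74.9 and 28.8 CPM at rest and 10.2 and 15.8 CPM after stimulation, and the only platelet marker, Itga2b, was at 2.69 CPM or below. With bulk RNA, a change in the number of cells of a type and a change in RNA per cell cannot be told apart.

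Egln3, Hif1a, Bnip3l and Pdk1 set the pattern of the 9 genes: the first pair was higher and the second pair lower after stimulation. At an adjusted p below 0.05 in edgeR, 2 of the 9 were higher and 2 lower, where 14.3% of all tested genes were higher and 12.1% lower, 26.4% in all. Since the members were picked from this contrast, nothing is read from their count. Hif1a was not past the threshold without resting library 5, which left 1 member higher. Both tetramer libraries lay above both resting libraries for 4 members and below them for 3, so 7 of 9 did not overlap. Over all tested genes these shares were 31.6% above and 33.7% below, 65.2% in all. The median log2 fold change, tetramer over resting, was 0.14 over the members and -0.06 over all tested genes.

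**Figure D1:**
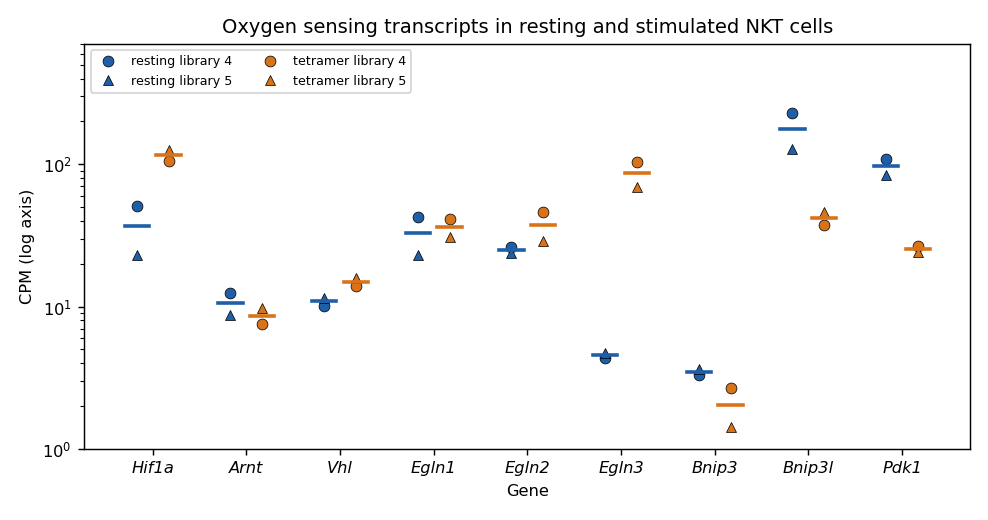
CPM on a log axis of each oxygen sensing transcript in resting (blue) and tetramer (orange) libraries 4 (circles) and 5 (triangles), with a bar at the mean of 2. Egln3 stands at 4.35 and 4.70 CPM at rest and 104 and 69.2 CPM after stimulation, while the points of Arnt and Egln1 overlap between groups.

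Hif1a, the oxygen-regulated subunit, had 246 counts in resting library 4 and 107 in resting library 5, and 513 and 620 in the tetramer libraries of those numbers. Scaled, these were 51.0 and 22.9 CPM at rest and 105 and 125 CPM after stimulation. Both stimulated libraries lay above both resting ones, and the resting libraries were the more uneven pair, with library 4 at 2.23 times library 5. The means were 36.9 ± 19.9 and 115 ± 14.5 CPM (SD, n = 2 each), a ratio of 3.12 and a log2 fold change of 1.64 ± 0.41 (SE). The log2 change was 2.35 without resting library 4 and 1.20 without resting library 5, so its size rests on which resting library is used.

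Arnt, the constant partner of HIF alpha subunits and also of the aryl hydrocarbon receptor, had 60 and 41 counts at rest and 37 and 48 after stimulation. Its levels of 12.4 and 8.76 CPM at rest and 7.57 and 9.71 CPM after stimulation overlapped (log2 fold change -0.29 ± 0.57, SE). A ratio of 2 transcripts within a library does not depend on how libraries are scaled. Counts of Hif1a to those of Arnt stood at 4.10 and 2.61 at rest and at 13.9 and 12.9 after stimulation, so the stimulated libraries had more Hif1a per Arnt count.

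Vhl, which encodes the part of the ubiquitin ligase that recognises hydroxylated HIF, had 49 and 54 counts at rest and 68 and 78 after stimulation. This is 10.2 and 11.5 CPM at rest and 13.9 and 15.8 CPM after stimulation, a small difference with groups that did not overlap (log2 fold change 0.45 ± 0.52, SE, and 0.16 with library totals in place of TMM scaling). The ratio of Hif1a to Vhl counts was 5.02 and 1.98 at rest and 7.54 and 7.95 after stimulation. The resting libraries differed more from each other in this ratio than resting library 4 did from either stimulated one.

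Egln3, which encodes the prolyl hydroxylase PHD3, differed most of the 9. It had 21 and 22 counts in the resting libraries and 506 and 342 in the tetramer libraries, or 4.35 and 4.70 CPM against 104 and 69.2 CPM. The groups were far apart, and tetramer library 4 was the higher of the stimulated pair. Means of 4.53 ± 0.248 and 86.4 ± 24.3 CPM (SD, n = 2 each) gave a ratio of 19.1 and a log2 fold change of 4.25 ± 0.48 (SE). With each library left out in turn, the log2 change stayed between 3.94 and 4.52. Of 11312 tested genes, 58 had a higher log2 fold change, counted with its sign, so that falls of any size are left out.

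Egln1, encoding PHD2, the main HIF hydroxylase in most tissues, had 207 and 107 counts at rest and 203 and 152 after stimulation. Its levels were 42.9 and 22.9 CPM at rest and 41.5 and 30.7 CPM after stimulation, with both stimulated values inside the resting range. The log2 fold change of 0.14 ± 0.44 (SE) had no stable sign: it was -0.22 without resting library 5, -0.08 without tetramer library 4, 0.68 without resting library 4 and -0.18 with library totals.

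Egln2, encoding PHD1, had 127 and 111 counts at rest and 226 and 142 after stimulation. In CPM it stood at 26.3 and 23.7 at rest and at 46.2 and 28.7 after stimulation, where tetramer library 5 was close to the resting pair (log2 fold change 0.58 ± 0.44, SE, and 0.22 without tetramer library 4). Within the hydroxylase family, the ratio of Egln3 to Egln1 counts was 0.101 and 0.206 at rest and 2.49 and 2.25 after stimulation. That of Egln3 to Egln2 was 0.165 and 0.198 at rest and 2.24 and 2.41 after stimulation. The 3 hydroxylase transcripts thus differed between groups to unequal degrees, whatever the scaling. Transcript length enters each ratio equally in all libraries, so the ratios compare libraries, not the abundance of the 3 genes.

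**Figure D2:**
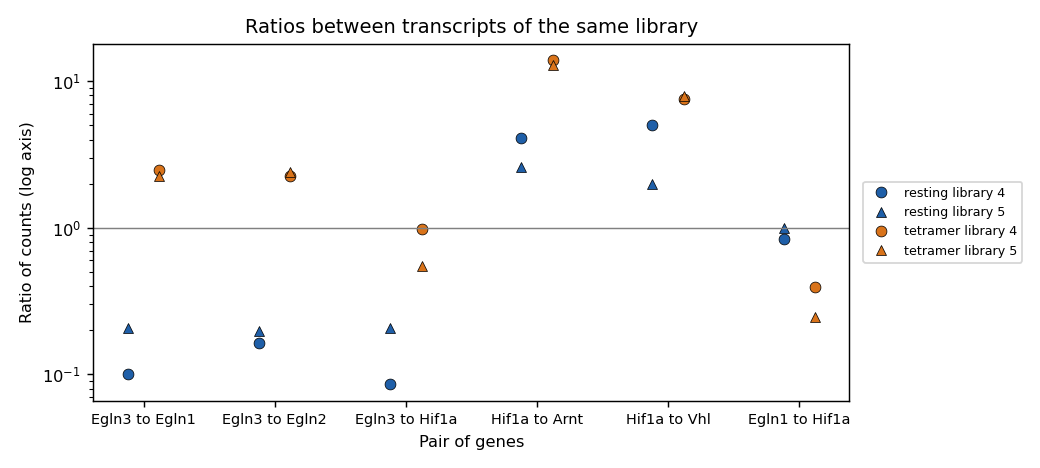
Ratio of the counts of 2 genes in the same library, on a log axis, for resting (blue) and tetramer (orange) libraries 4 (circles) and 5 (triangles), with a grey line at equal counts. Egln3 to Egln1 lies at 0.101 and 0.206 at rest and at 2.49 and 2.25 after stimulation, and Hif1a to Arnt at 4.10 and 2.61 against 13.9 and 12.9.

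Within the stimulated pair, Egln3 and Hif1a differed in opposite directions. Counts of Egln3 to those of Hif1a were 0.0854 and 0.206 at rest, 0.986 in tetramer library 4 and 0.552 in tetramer library 5. The library with more Egln3 had the lower Hif1a level of the pair. Tetramer library 4 stood at 1.5 times library 5 for Egln3 and at 0.837 times for Hif1a. A single pair of libraries cannot show whether the levels of these genes go together.

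Bnip3l, also called Nix, encodes an outer mitochondrial membrane receptor for mitophagy, the removal of mitochondria, and is known for clearing mitochondria from maturing red cells. It had 1102 and 598 counts at rest and 183 and 228 after stimulation, that is 228 and 128 CPM against 37.4 and 46.1 CPM. Both stimulated libraries lay well below both resting ones. Means of 178 ± 71.1 and 41.8 ± 6.13 CPM (SD, n = 2 each) gave a log2 fold change of -2.09 ± 0.40 (SE), which was -1.60 without resting library 4 and -2.43 without resting library 5. The 7 erythroid markers also fell, from a sum of 215.9 and 554.7 CPM in resting libraries 4 and 5 to 51.1 and 113.6 CPM, and at rest library 4 had the higher Bnip3l and library 5 the higher sum. Their part in the lower Bnip3l was not tested.

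Bnip3, the related mitophagy receptor and a classical hypoxia-induced gene, had few reads. It had 16 and 17 counts at rest and 13 and 7 after stimulation, or 3.31 and 3.63 CPM against 2.66 and 1.42 CPM. The stimulated values were the lower ones, but a few reads separate the groups (log2 fold change -0.76 ± 0.69, SE, and -0.37 without tetramer library 5). Unlike Egln3, it was not higher in either stimulated library.

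Pdk1 here is pyruvate dehydrogenase kinase 1, which holds pyruvate out of the TCA cycle by phosphorylating pyruvate dehydrogenase, and not the PI3 kinase effector of the gene Pdpk1. It had 529 and 392 counts at rest and 130 and 119 after stimulation, that is 110 and 83.8 CPM against 26.6 and 24.1 CPM. The stimulated pair was tight and lay far under the resting pair. Means of 96.7 ± 18.3 and 25.3 ± 1.79 CPM (SD, n = 2 each) gave a ratio of 0.262 and a log2 fold change of -1.93 ± 0.40 (SE), between -2.09 and -1.71 with single libraries left out. Pdk1 and Egln3, both known as HIF targets, thus differed in opposite directions.

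**Figure D3:**
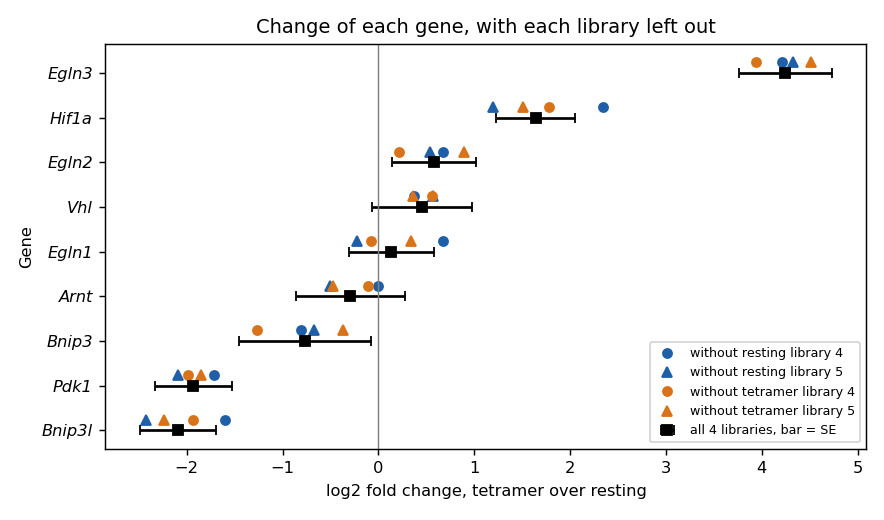
Change of each gene on the log2 scale (tetramer over resting) from all 4 libraries (black squares, bars are SE) and with 1 library left out (blue, a resting library; orange, a tetramer library; circles for library 4, triangles for library 5). Egln1 lies on both sides of 0, and every other gene keeps its side throughout, with Arnt coming as near as -0.006.

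Within groups, 6 of the 9 members were higher in resting library 4 than in resting library 5, against 49.3% of all tested genes, and 5 of 9 were higher in tetramer library 4 than in tetramer library 5, against 50.1%. The largest gaps between resting libraries were in Hif1a (2.23 times), Egln1 (1.88 times) and Bnip3l (1.79 times). Egln2, Vhl, Egln3 and Bnip3 differed between resting libraries by a factor of 1.14 or less.

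By Euclidean distance between centred log2 CPM over the 4 libraries, among 7410 genes with a mean of at least 10 CPM, the genes most like Hif1a were Arfip1 (distance 0.103), Ppp2r1b (0.127) and Zfp664 (0.167). Ppp2r1b stood at 29.0 and 14.1 CPM at rest and at 67.3 and 74.4 CPM after stimulation, with the same uneven resting pair as Hif1a. Those like Pdk1 included Rasgrp1 (0.0667), the nearest, at 215 and 162 CPM against 51.6 and 44.7 CPM, and Vps13d (0.0889). For Bnip3 they were Rxrb (0.0619), Prr3 (0.0726) and Rab21 (0.0984), a likeness to a transcript of few reads. With 4 libraries such distances mostly record the difference between groups and that within each pair.

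Other genes of the pathway were taken from 7 lists by function, and these were tested. The lists too were chosen with earlier results of these data known, so their shares are not independent support. Of 14 regulators of HIF, 2 rose and 4 fell, or 14.3% and 28.6%, where all genes gave 14.3% and 12.1%. The genes that rose encode parts of the ligase around VHL. Cul2, its scaffold, went from 21 and 23 counts to 82 and 74 (log2 fold change 1.77 ± 0.58, SE, edgeR adjusted p = 0.0237). Tceb2, elongin B, went from 140 and 222 CPM to 446 and 291 CPM (1.02 ± 0.38, edgeR adjusted p = 0.0460). The other subunits did not pass, with Tceb1, elongin C, at 1.08 (edgeR adjusted p = 0.0779) and Rbx1 at 0.79 (adjusted p = 0.140). With library totals neither Cul2 (edgeR adjusted p = 0.0513) nor Tceb2 (0.137) was called. Without tetramer library 4, edgeR also called 0 of the 14 higher and 1 lower. Cul2 lost its call without tetramer library 5 as well (edgeR adjusted p = 0.109), and Tceb2 without resting library 4 (adjusted p = 0.253) or with the column number as a block (adjusted p = 0.0806). Tceb1 was called when resting library 4 (adjusted p = 0.0237) or tetramer library 5 (0.0396) was left out, and Rbx1 without resting library 5 (0.0282).

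The regulators that fell were Cited2, Epas1, Siah1a and Ing4. Cited2, which competes with HIF for the coactivators CBP and p300 and is itself a HIF target, had 344 and 264 counts at rest and 38 and 30 after stimulation. Its log2 fold change of -3.20 ± 0.47 (SE, edgeR adjusted p = 1.82e-05) was the only one of the 4 that was called under every alternative. Epas1, which encodes HIF-2α, went from 104 and 223 counts to 39 and 59 (log2 fold change -1.79 ± 0.51, SE, adjusted p = 0.0110), opposite to Hif1a. In the absence of resting library 5 (edgeR adjusted p = 0.146) or of tetramer library 4 (0.171) it was not called. The sum of macrophage markers, also higher in resting library 5, was 29.0 and 46.5 CPM at rest and 8.59 and 11.7 CPM after stimulation. Of these markers, Cd68 was not higher in resting library 5 and was not called. The endothelial marker Pecam1 was higher in resting library 4, at 74.9 and 28.8 CPM at rest and 10.2 and 15.8 CPM after stimulation. Whether other cells contributed to Epas1 was not tested. Siah1a, a ubiquitin ligase that degrades prolyl hydroxylases, changed by -1.74 ± 0.56 (edgeR adjusted p = 0.0236), with the call lost without resting library 4 (0.0750), tetramer library 4 (0.142) or tetramer library 5 (0.204). Ing4, a chromatin reader, changed by -1.23 ± 0.39 (adjusted p = 0.0211, and 0.415 without tetramer library 4). Hif1an, the asparagine hydroxylase that blunts HIF activity, was at 153 and 105 CPM at rest and 61.6 and 111 CPM after stimulation and did not pass (adjusted p = 0.268).

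**Figure D4:**
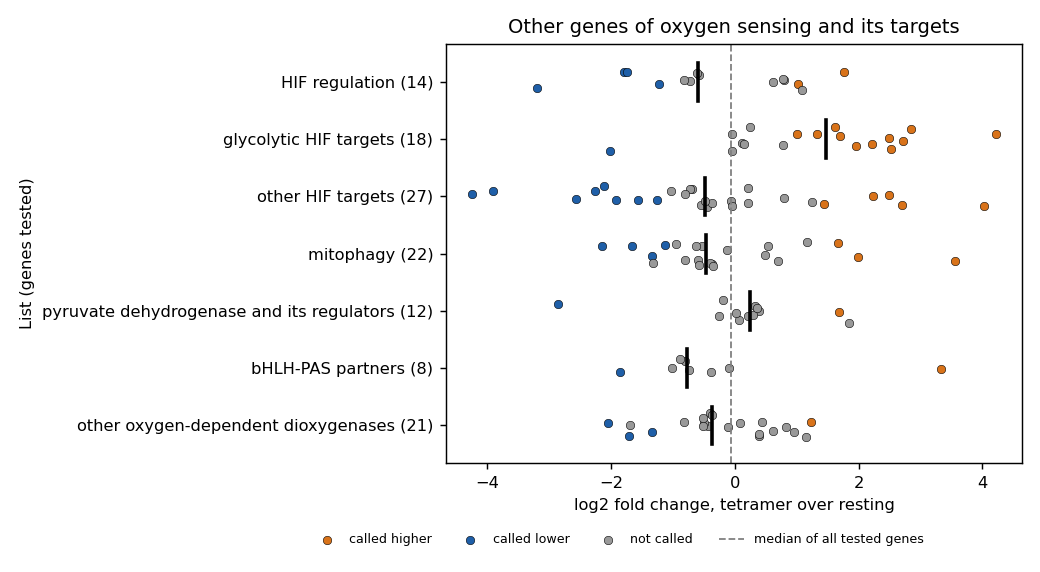
Change on the log2 scale (tetramer over resting) of the tested genes of 7 lists around oxygen sensing, with the number tested in parentheses, black bars at list medians and a dashed line at the median of all genes (-0.06). Points called higher are orange and those called lower blue; among glycolytic HIF targets 11 of 18 are orange, and other HIF targets spread to both sides.

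Known HIF targets were taken as 2 lists. Of 18 glycolytic targets 11 rose and 1 fell (61.1% and 5.56%), with a median log2 fold change of 1.48. Beside the hexokinase Hk2 and Gapdh, the lactate exporter Slc16a3 rose from 5 and 5 counts to 58 and 18 (log2 fold change 2.85 ± 0.77, SE, edgeR adjusted p = 0.00735, and 0.407 without tetramer library 4). The exception was Pfkfb4, an isoform of the enzyme that sets fructose 2,6-bisphosphate, with 47 and 40 counts at rest and 15 and 7 after stimulation (edgeR adjusted p = 0.0268). It was not called without tetramer library 4 (0.123) or tetramer library 5 (0.299). The glucose transporter Slc2a1 was at 41.2 and 33.8 CPM at rest and 84.5 and 44.1 CPM after stimulation and did not pass (adjusted p = 0.169). Without tetramer library 4, 7 of the 18 rose and 0 fell.

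Of 27 other HIF targets 5 rose and 8 fell (18.5% and 29.6%), with a median of -0.48. Tfrc, the transferrin receptor, had the largest rise and the chemokine receptor Cxcr4 the largest fall, -4.24 ± 0.46 (SE) on the log2 scale. Ccng2, an unusual cyclin linked to cell cycle arrest, went from 78 and 42 counts to 4 and 4 (-3.91 ± 0.74, edgeR adjusted p = 0.000384). Those that follow were chosen after their values were seen. Fam162a, a mitochondrial protein induced by hypoxia, rose from 37.5 and 39.3 CPM to 211 and 149 CPM (log2 fold change 2.23 ± 0.38, SE, edgeR adjusted p = 0.000126). Higd1a, a hypoxia-induced factor of the respiratory chain, rose by 1.44 ± 0.37 (adjusted p = 0.00515, and 0.0847 without tetramer library 4).

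Among those that fell, Vegfa, the angiogenic growth factor and best known HIF target, went from 15.8 and 25.6 CPM to 4.09 and 9.91 CPM (log2 fold change -1.56 ± 0.56, SE, edgeR adjusted p = 0.0392). It was not called without resting library 5 (0.158) or tetramer library 4 (0.446). Mxi1, a Myc antagonist, went from 219 and 108 counts to 44 and 45 (edgeR adjusted p = 0.00646). The call did not hold without resting library 4 (0.0620), tetramer library 4 (0.0816) or tetramer library 5 (0.0505). Hmox1, heme oxygenase 1, went from 73 and 140 counts to 18 and 33 (adjusted p = 0.00740, but 0.0607 without resting library 5 and 0.169 without tetramer library 4). Hmox1 and Vegfa were higher in resting library 5, as were the sums of macrophage and of erythroid markers, whose part in these falls was not tested. Over the 27 genes, 3 fell without tetramer library 4 and 5 without tetramer library 5.

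The kinases of pyruvate dehydrogenase went separate ways around Pdk1. Pdk2 fell from 133 and 121 counts to 27 and 9 (log2 fold change -2.85 ± 0.59, SE, edgeR adjusted p = 0.000780). Pdk3 rose from 94 and 65 counts to 269 and 260 (1.69 ± 0.44, edgeR adjusted p = 0.00571). Without tetramer library 4, the log2 fold change of Pdk3 was 1.67 and it was not called. Pdk4 had 15 and 16 counts at rest and 12 and 15 after stimulation (adjusted p = 0.815). Thus Pdk1 and Pdk2 were lower in both stimulated libraries and Pdk3 was higher. Of 12 genes of the enzyme complex, its regulators and the pyruvate carrier, these were the only ones called, 1 higher and 1 lower (8.33% each way). The E1 subunits Pdha1 and Pdhb, the substrate of these kinases and its partner, did not pass (log2 fold changes 0.33 and 0.39, adjusted p = 0.528 and 0.451). Without resting library 5, 2 of the 12 were called higher, and without tetramer library 4 edgeR called 0 higher.

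Among 22 mitophagy genes, which include the partners of BNIP3 and BNIP3L, 3 rose and 4 fell (13.6% and 18.2%). Pink1, the kinase that flags damaged mitochondria, fell with Bnip3l, from 1045 and 1153 counts to 222 and 294 (log2 fold change -2.14 ± 0.38, SE, edgeR adjusted p = 0.000169). Among the genes of LC3 and GABARAP proteins, which mitophagy receptors bind, those called went both ways. Gabarap and Map1lc3a overlapped between groups and did not pass (edgeR adjusted p = 0.286 and 0.711). Gabarapl1 rose from 20 and 33 counts to 112 and 106 (1.98 ± 0.55, adjusted p = 0.00869, and 0.0994 without tetramer library 4). Gabarapl2 changed by -1.33 ± 0.37 (adjusted p = 0.00863) and Map1lc3b by -1.12 ± 0.37 (adjusted p = 0.0241), both chosen after their values were seen. Map1lc3b was not called without resting library 5 (0.0792), tetramer library 4 (0.301) or tetramer library 5 (0.0816), or with the block (0.0541), nor Gabarapl2 without tetramer library 4 (0.0762) or 5 (0.111). Bcl2l1, encoding BCL-XL, which BNIP3 proteins bind, rose from 52 and 104 counts to 1200 and 718 (log2 fold change 3.56 ± 0.44, SE, adjusted p = 2.17e-06), and its relative Bcl2 did not pass (0.70, adjusted p = 0.148). With library totals 7 of the 22 fell. Without tetramer library 4, 1 rose and 1 fell, and without tetramer library 5, 1 fell.

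Of 8 genes of PAS-domain partners and coactivators 1 rose and 1 fell (12.5% each way), close to the 14.3% and 12.1% of all tested genes. Ahr, the aryl hydrocarbon receptor, which also pairs with ARNT, rose from 6 and 1 counts to 29 and 46 (log2 fold change 3.33 ± 0.80, SE, edgeR adjusted p = 0.00318, and 0.0675 without tetramer library 5). Arntl2, a clock factor related to ARNT, went from 15.1 and 28.2 CPM to 4.71 and 7.28 CPM (-1.85 ± 0.55, adjusted p = 0.0150), a call lost without resting library 5 (0.108), tetramer library 4 (0.230) or tetramer library 5 (0.0507). Among partners of the ARNT protein, Ahr and Hif1a were thus higher after stimulation and Epas1 lower, while Arnt overlapped between groups.

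Of 21 other genes linked to oxygen-dependent dioxygenases, 1 rose and 3 fell (4.76% and 14.3%). The genes that fell encode chromatin enzymes. The histone demethylase Kdm3b went from 48.3 and 24.1 CPM to 8.59 and 8.90 CPM (log2 fold change -2.05 ± 0.50, SE, edgeR adjusted p = 0.00398, and 0.0565 without tetramer library 4). Tet1, which oxidises methylcytosine, changed by -1.72 ± 0.49 (adjusted p = 0.0115), and Phf8, another demethylase, by -1.34 ± 0.44 (adjusted p = 0.0262). Tet1 was not called without resting library 5 (0.0705) or either tetramer library (0.171 without 4, 0.0516 without 5), nor Phf8 without resting library 4 (0.348), tetramer library 4 (0.107) or tetramer library 5 (0.186). The gene that rose, P4hb, named after its values were seen, encodes protein disulfide isomerase, the subunit of collagen prolyl hydroxylase without dioxygenase activity. It went from 501 and 571 counts to 1352 and 1253 (adjusted p = 0.0137), a call lost with library totals (0.0547) and without resting library 4 (0.0708) or tetramer library 4 (0.126). Without tetramer library 4, edgeR called 0 of these 21 genes in either direction.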

How the data were processed

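Polyadenylated RNA of 4 libraries was sequenced, 2 resting and 2 tetramer. The authors deposited whole-number read counts per gene symbol. Per the submitters' processing notes, Bowtie2, DESeq2 and the build mm9 were used, and neither the read counter nor its use of strand is stated in the sources used here. The smallest count in any library was 1, so genes at 0 in a library are not analysed here. Of 12021 rows 1 was left out because a cell was not a number. Column names carry the group and 4 or 5, numbers that differ from the replicate numbers in the titles. Nothing says that libraries of a group came from separate animals. The p-values thus set the group difference against a spread between libraries that may be technical.

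The counts were fitted by edgeR 4.0.16 under R 4.3.3 (quasi-likelihood F test, default filter, TMM, Benjamini-Hochberg over 11312 genes, threshold 0.05). TMM factors ranged from 0.890 to 1.159 and the common coefficient of biological variation was 0.322. Library pairs differed beyond sampling noise (chi-square 31.7 and 28.5 times its degrees of freedom). DESeq2 1.42.0, limma-voom (limma 3.58.1), other scaling, other filters, a block and libraries left out were alternatives. On simulated counts of 11091 genes, the fit recovered 1, 4, 25 and 45 of 50 genes changed 1.5-, 2-, 4- and 8-fold, with 6 false calls among 81. Few genes were changed in that simulation, while 26.4% of tested genes were called here, so its rates need not hold for these data.

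The members and lists were chosen with earlier results of these data known. The rule for named genes took all members, every called HIF regulator, up to 3 called genes with the largest change per list or the gene with the smallest p, the 2 most abundant markers per cell type and 3 genes most like Hif1a, Bnip3 and Pdk1. Centred log2 CPM for the likeness used a prior count of 2. The results of some single genes and of 1 marker list are not reported here.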

Additional observations from a re-analysis of the deposited data

How the results depend on the processing

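Of 46 list genes called, 17 were called in every alternative run that tested them, and no called list gene changed direction. Leaving out tetramer library 4 cost most calls, 27 of 46, and tetramer library 5 cost 15. With library totals the median of all genes went from a log2 value of -0.06 to -0.35, and calls went from 1620 higher and 1366 lower (54.3% higher) to 1193 and 2250 (34.7% higher), the cause of which is the scaling itself. Calls numbered 622 to 1629 higher and 313 to 1488 lower when single libraries were left out, the lone library of a group being assumed to vary as the other pair. Among list genes, in the order higher then lower, these ranges were 0 to 3 and 1 to 3 (HIF regulation), 7 to 10 and 0 to 1 (glycolytic targets), 4 to 6 and 3 to 7 (other targets), 1 to 4 and 1 to 4 (mitophagy), 0 to 2 and 1 to 1 (pyruvate dehydrogenase), 0 to 1 and 0 to 1 (PAS partners) and 0 to 2 and 0 to 4 (dioxygenases). With library totals, 0 HIF regulators and 0 dioxygenase genes were higher by edgeR, and 7 mitophagy genes and 2 PAS partners lower. With a mean of at least 5 CPM, 0 PAS partners were higher by edgeR because Ahr was not tested, and Bnip3 had no value. Among members, the log2 change of Egln1 ranged from -0.22 to 0.675 with single libraries left out, was -0.22 without resting library 5, -0.08 without tetramer library 4 and -0.18 when totals were used, and no other member changed sign.

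The column numbers 4 and 5 gave the same-numbered libraries no clear pairing (Pearson's r of deviations across tested genes, which are not replicates, 0.0486). With the replicate block, edgeR called 1693 genes higher and 1468 lower, 1 HIF regulator and 2 dioxygenase genes higher. The values of Bnip3 rest on 7 to 17 reads per library.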
